A study of Mus musculus with 12 samples.

Results

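The Hoxd cluster genes were followed in cultured fibroblasts of mouse embryos, and 9 members were read on Agilent single-colour arrays. The members are Hoxd1, Hoxd3, Hoxd4, Hoxd8, Hoxd9, Hoxd10, Hoxd11, Hoxd12 and Hoxd13. They were found through the RefSeq accession that the scanner files give for each probe, and each member had 1 probe, so that the cluster makes up 9 of the 20660 genes with a named probe. The cells were GADD34ΔC/ΔC, here written ΔC, or wild type (WT). Cells of both genotypes either took up poly(I:C) of high molecular weight by lipofection (2.5 µg/ml, 6 h), which is a man-made mimic of viral RNA, or stayed untreated. This gave 4 groups of 3 arrays from separate experiments, namely ΔC with poly(I:C), ΔC untreated, WT with poly(I:C) and WT untreated. The name ΔC stands for a change in Ppp1r15a, the gene of GADD34, a subunit that directs protein phosphatase 1 to the translation factor eIF2α. The labels do not say how many embryos the cells of either genotype came from, of which sex they were, or whether a line was clonal, and they list no culture given the lipid alone, so that genotype and the origin of the cells cannot be told apart here.

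Hox genes encode homeodomain transcription factors that tell cells where along the head-to-tail axis and along the limbs they lie. They sit in the clusters Hoxa, Hoxb, Hoxc and Hoxd, and genes of different clusters that stem from the same ancestral gene carry the same number and are called paralogues. Within a cluster the order of the genes follows the order in which they are used along the body, from Hoxd1 in the front to Hoxd13 at the rear end, and the genes at the Hoxd13 end also shape the forearm and the digits. Fibroblasts in culture are known to keep a pattern of Hox expression that reflects the place in the body from which they were taken.

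On chromosome 2 the members lie in the order Hoxd1, Hoxd3, Hoxd4, Hoxd8, Hoxd9, Hoxd10, Hoxd11, Hoxd12 and Hoxd13, between Mtx2, which follows Hoxd1, and the homeobox gene Evx2, which follows Hoxd13. In RefSeq the annotated spans of Hoxd3 and Hoxd4 overlap, and so do those of Hoxd10 and Hoxd11. The position of a probe within its gene is not given in the sources used here, so a probe is placed no closer than its gene. Sequence is shown for 4 members as the 250 bases before the start of the gene, from RefSeq on build GRCm38.p6, plus strand. Hoxd13 and Hoxd10 are shown because they had little or no signal in ΔC cells, Hoxd8 because it kept some, and Hoxd12 because it was not well above background in either genotype although it lies between Hoxd11 and Hoxd13. The intervals are chr2:74667975-74668224 for Hoxd13, chr2:74674763-74675012 for Hoxd12, chr2:74691641-74691890 for Hoxd10 and chr2:74704365-74704614 for Hoxd8. Capitals mark matches on either strand to motifs of basal promoters. One motif is TATAAA, where the general machinery binds. Another is CCAAT, bound by the factor NF-Y. The last is GGGCGG, bound by factors of the Sp family.
Hoxd13: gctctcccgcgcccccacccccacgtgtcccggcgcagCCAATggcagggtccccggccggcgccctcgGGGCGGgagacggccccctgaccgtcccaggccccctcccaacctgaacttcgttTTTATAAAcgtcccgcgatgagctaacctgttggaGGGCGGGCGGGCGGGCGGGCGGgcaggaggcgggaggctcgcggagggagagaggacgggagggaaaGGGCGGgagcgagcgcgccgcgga
Hoxd12: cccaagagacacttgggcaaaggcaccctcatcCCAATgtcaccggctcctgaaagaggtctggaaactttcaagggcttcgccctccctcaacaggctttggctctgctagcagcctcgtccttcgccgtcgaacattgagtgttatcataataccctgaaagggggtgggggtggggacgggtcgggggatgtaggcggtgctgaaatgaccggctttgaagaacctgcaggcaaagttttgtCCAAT
Hoxd10: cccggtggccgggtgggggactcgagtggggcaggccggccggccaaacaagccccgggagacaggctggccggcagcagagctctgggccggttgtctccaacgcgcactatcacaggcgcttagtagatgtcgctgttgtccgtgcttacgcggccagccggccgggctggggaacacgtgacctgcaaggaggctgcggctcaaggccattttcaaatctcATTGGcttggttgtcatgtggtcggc
Hoxd8: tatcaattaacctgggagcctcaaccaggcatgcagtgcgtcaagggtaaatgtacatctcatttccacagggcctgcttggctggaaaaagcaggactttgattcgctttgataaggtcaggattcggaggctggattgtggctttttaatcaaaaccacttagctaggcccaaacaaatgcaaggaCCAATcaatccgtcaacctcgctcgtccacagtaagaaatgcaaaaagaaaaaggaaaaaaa

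These promoters differed in their base content. The Hoxd13 window held 31 CpG dinucleotides, the Hoxd10 window 20, the Hoxd12 window 10 and the Hoxd8 window 6, against a median of 6 in 32536 promoter windows of the same length. Over the 10 windows of the 9 members, of which Hoxd11 had 2, the median was 12.5 CpG, with a range of 2 to 31. GGGCGG matched in 4 of these 10 windows and in 33% of all promoters, and the Hoxd13 window alone held 7 matches, some of which overlap each other. CCAAT was found in 7 of the 10 and in 33.8% of all, and TATAAA in 2 of the 10 and in 12.3% of all. A form of the site that interferon regulatory factors bind matched in 0 of the 10 windows and in 2.98% of all. A form of the NF-kB site matched in 3 of the 10 and in 17.7% of all, and TGATTNAT, a site of HOX proteins with their partner PBX, in 1 of the 10 and in 2.83% of all. Such matches describe letters within these windows and not binding.

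Levels are given as the log2 of the background-subtracted probe signal minus the 75th percentile of the array, so that 0 is a bright probe, and the levels of different probes are not compared with one another. A flag in the files says whether a spot was well above background, and the dimmest level with that flag was -6.60 to -5.48, depending on the array. A gene was tested where all 3 arrays of 1 group or more carried the flag, which 15445 genes met, and a gene was called at a limma adjusted p under 0.05. Between 60.4 and 67.3% of probes were well above background on an array, and levels correlated across genes at 0.98 to 0.996 between arrays of a group. Ppp1r15a was well above background on 0 of 3 untreated ΔC arrays and at least 486-fold lower there than in untreated WT cells (limma adjusted p = 6.15e-05), and on 1 of 3 ΔC arrays with poly(I:C). Isg15, an interferon-stimulated gene, rose with poly(I:C) by 3.71 in ΔC cells and by 5.64 in WT cells on the log2 scale (limma adjusted p = 1.63e-04 and 6.09e-06), and Ifit1, another, by 5.44 and 8.53.

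The ΔC arrays numbered 3 stood apart from the other ΔC arrays in Hoxd8, in Hoxd9 and in Y-linked genes. On the log2 scale, Hoxd8 on ΔC array 3 differed from ΔC arrays 1 and 2 by -2.94 untreated and by -3.04 with poly(I:C). For Hoxd9 these differences were -2.24 untreated and -2.80 with poly(I:C). Of 34 Hox genes tested in the 4 clusters, Hoxd8 and Hoxd9 were the ones at least 2 log2 units lower on both ΔC arrays 3, a limit chosen after the values were seen, which 0.253% of all genes tested met. At the same limit 0.764% of all genes tested, and 0 of the 34 Hox genes, were higher on both. Ddx3y, a gene of the Y chromosome, read -7.35, -8.23 and -1.56 on ΔC arrays 1 to 3 with poly(I:C) and -8.22, -8.30 and -2.08 untreated, against 0.27 to 1.39 on the 6 WT arrays. Eif2s3y, another, read -5.68, -8.38 and -0.05 with poly(I:C) and -5.80, -8.46 and -0.33 untreated in ΔC cells, against 1.33 to 2.74 in WT cells. In untreated cells the Y-linked gene Uty was at least 4.69-fold lower in ΔC than in WT cells (limma adjusted p = 9.25e-04). Xist, the transcript that silences an X chromosome, was well above background on 0 of the 12 arrays. What these differences have to do with the Hoxd values was not tested, and the untreated and treated ΔC arrays 3 lay on different slides and scan days. Genotype differences of Hoxd8 and Hoxd9 are therefore given below with and without the 4 arrays numbered 3.

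**Figure D1:**
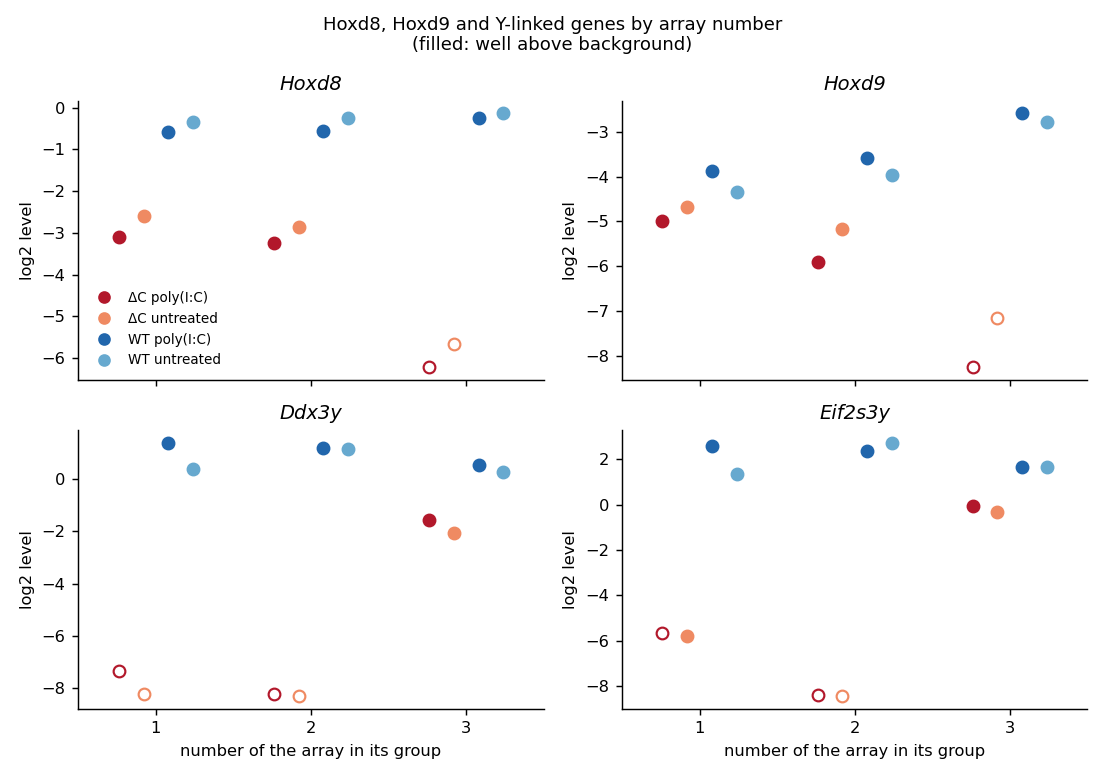
Log2 levels of Hoxd8, Hoxd9 and the Y-linked genes Ddx3y and Eif2s3y (vertical axes, which differ between panels) by the number of the array in its group (horizontal axis), 1 point per array, filled where the probe was well above background. In ΔC cells, array 3 is lowest for Hoxd8 and Hoxd9 and highest for the Y-linked genes, whereas in WT cells Hoxd9 on array 3 is above arrays 1 and 2.

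The cluster was read from Hoxd8 to Hoxd13 in WT cells and was mostly at background in ΔC cells. Hoxd8, Hoxd9, Hoxd10, Hoxd11 and Hoxd13 were well above background on all 6 WT arrays, whereas no member was on all 6 ΔC arrays. Hoxd1, Hoxd3 and Hoxd12 were well above background on 0 of 12 arrays, and Hoxd4 on 5 of them, scattered over all 4 groups. The 5 members that were tested thus entered the test through the WT groups alone, and a gene that enters in this way has to be dimmer on some ΔC array.

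**Figure D2:**
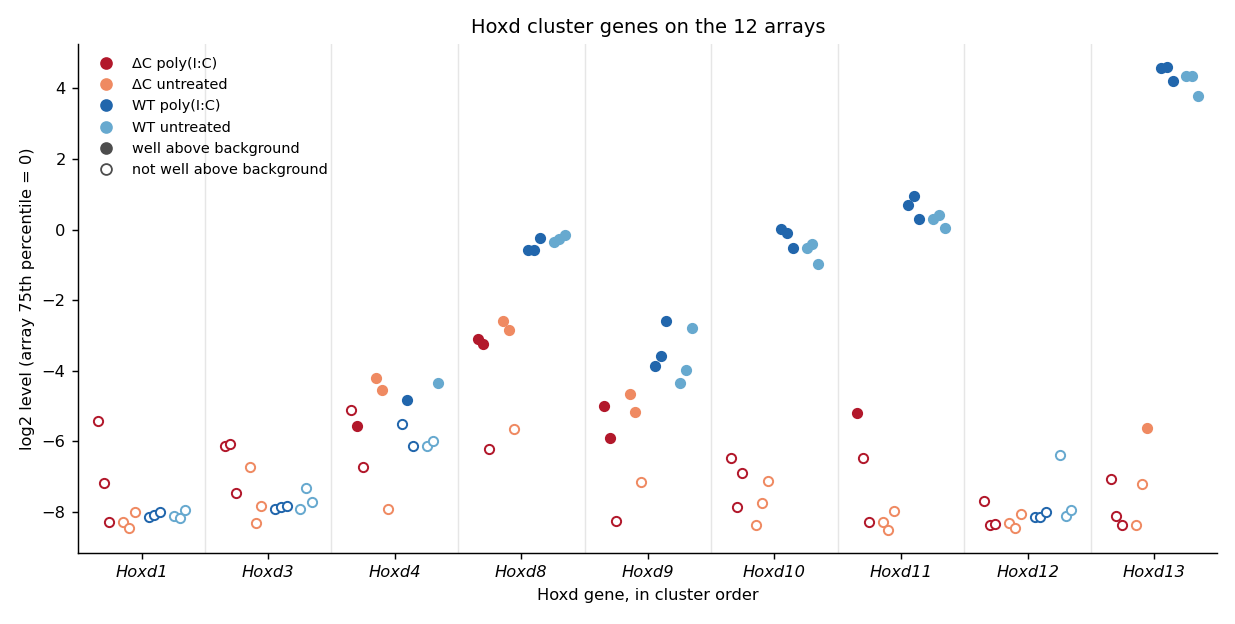
Log2 level, with the 75th percentile of each array at 0 (vertical axis), of the 9 Hoxd genes in cluster order (horizontal axis) on the 12 arrays, 1 point per array, filled where the probe was well above background. Hoxd10, Hoxd11 and Hoxd13 lie between -0.99 and 4.60 on the 6 WT arrays and at or below -5.20 on the ΔC arrays, with 2 filled ΔC points.

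In untreated cells, 4 of the 5 members tested were lower in ΔC than in WT cells, namely Hoxd13, Hoxd11, Hoxd10 and Hoxd8, and Hoxd9 did not pass. Over all genes tested, 10.2% were called lower and 21.2% were called in either direction (limma). Among treated cells, all 5 members tested were lower in ΔC cells, where 9.04% of all genes tested were called lower and 20.9% in either direction. Since the members had entered through the WT groups, nothing is read from these counts, and the values of each member follow. In RNA of whole cultures, fewer cells that express a gene and less of its RNA per cell cannot be told apart.

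Hoxd13, the last gene of the cluster, whose product is needed for the digits and the genital tubercle, had the widest fitted difference of the members tested. Its levels were -8.38, -7.19 and -5.61 on the untreated ΔC arrays 1 to 3, against 4.36, 4.35 and 3.78 on the untreated WT arrays. Array 3 was the brightest of these ΔC arrays and the only one well above background, and the groups did not overlap. The fitted difference was -11.22 ± 0.59 (SE, n = 3 per group, limma adjusted p = 2.12e-06), a size that draws in part on readings at background. Treated ΔC arrays gave -7.06, -8.12 and -8.38 and treated WT arrays 4.58, 4.60 and 4.21. No treated ΔC array was well above background, and Hoxd13 was at least 1520-fold lower in ΔC than in WT cells (adjusted p = 1.45e-06). Once levels were raised to the dimmest value above background of each array, the differences were -10.16 untreated and -10.57 with poly(I:C).

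Hoxd11, which acts with its paralogues in the forearm and the kidney, was likewise at or near background in ΔC cells. Untreated ΔC arrays read -8.29, -8.50 and -7.96, against 0.29, 0.42 and 0.04 in untreated WT cells. Hoxd11 was well above background on none of these ΔC arrays and on all of the WT arrays. It was at least 82.8-fold lower in untreated ΔC cells (limma adjusted p = 1.15e-05). After poly(I:C) the levels were -5.20, -6.48 and -8.29 in ΔC cells and 0.69, 0.95 and 0.30 in WT cells. The treated ΔC array 1 was the only ΔC array well above background, and the groups did not overlap. The fitted difference there was -7.30 ± 0.59 (SE, n = 3 per group, adjusted p = 3.79e-05), or -6.65 with levels raised to the floor of each array.

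Hoxd10, known for its part in the hindlimb and its motor neurons, had levels of -8.36, -7.74 and -7.13 in untreated ΔC cells and -0.53, -0.40 and -0.99 in untreated WT cells. Treated, it had -6.46, -7.85 and -6.91 in ΔC cells and 0.02, -0.10 and -0.52 in WT cells. No ΔC array was well above background under either condition and every WT array was, which held for no other member. Hoxd10 was at least 44.7-fold lower in ΔC cells untreated (limma adjusted p = 2.33e-06) and at least 59.9-fold lower with poly(I:C) (adjusted p = 3.4e-06).

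Hoxd8, near the middle of the cluster, kept a signal in ΔC cells. Its levels were -2.59, -2.85 and -5.66 in untreated ΔC cells, against -0.35, -0.25 and -0.14 in untreated WT cells. Arrays 1 and 2 of the ΔC group were well above background, array 3 was not, and the groups did not overlap. The difference was -3.45 ± 0.89 (SE, n = 3 per group, limma adjusted p = 0.0217) and -2.42 (adjusted p = 6.89e-05) without the 4 arrays numbered 3. After treatment Hoxd8 read -3.10, -3.25 and -6.21 in ΔC cells and -0.58, -0.57 and -0.24 in WT cells. Again ΔC array 3 was the dimmest and the one not well above background. The difference was -3.73 ± 0.89 (adjusted p = 0.0153), or -2.60 (adjusted p = 5.45e-05) without arrays 3. The call in untreated cells was lost without WT array 1, 2 or 3 (adjusted p = 0.0589, 0.0549 and 0.0523) as well as with a fixed block for slide (0.0813) or for the day of the scan (0.0768) and with the authors' table (0.109). In treated cells it was lost with these blocks alone among single changes to the scanner-based fit (0.0735 and 0.0692).

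Hoxd9 was dim in both genotypes. It read -4.67, -5.17 and -7.16 in untreated ΔC cells, against -4.35, -3.97 and -2.79 in untreated WT cells. The groups did not overlap, but the highest ΔC array and the lowest WT array lay close together, while the arrays numbered 3 lay far apart. The difference of -1.96 ± 0.87 (SE, n = 3 per group) did not pass limma's test (adjusted p = 0.135, and 0.0547 to 0.316 over the other settings). After treatment the levels were -5.00, -5.90 and -8.25 in ΔC cells and -3.87, -3.59 and -2.59 in WT cells, and the difference of -3.03 ± 0.87 passed (adjusted p = 0.032). Without arrays 3 the differences were -0.76 untreated (adjusted p = 0.131) and -1.72 with poly(I:C) (adjusted p = 0.0105). The call in treated cells was lost without treated WT array 1, 2 or 3 (adjusted p = 0.0657, 0.0791 and 0.0836), without treated ΔC array 2 or 3 (0.0623 and 0.0788), in a fit of these groups alone (0.0618) and with a fixed block for slide (0.191) or for the day of the scan (0.172). It was also lost with the authors' table (0.129), and passed in 19 of 28 other settings.

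At the Hoxd1 end there was little to compare. Hoxd4, used in the hindbrain and the neck, read -4.20, -4.54 and -7.91 in untreated ΔC cells and -6.14, -5.98 and -4.35 in untreated WT cells. Treated, it read -5.11, -5.57 and -6.71 in ΔC cells and -5.51, -4.82 and -6.13 in WT cells. It was well above background on 1 and 2 arrays of the treated and untreated ΔC groups and on 1 array of each WT group, the groups overlapped in both comparisons, and Hoxd4 was not tested. With poly(I:C), Hoxd3 read -6.12, -6.08 and -7.47 in ΔC cells and -7.90, -7.86 and -7.82 in WT cells, groups that did not overlap, although no array was well above background. A weaker flag of the files, a signal positive and significant against background, was set on 3 of 3 of these ΔC and 0 of 3 of these WT arrays, and for Hoxd1 on 2 and 0. Over the 12 arrays Hoxd3 lay between -8.32 and -6.08, Hoxd1 between -8.46 and -5.42 and Hoxd12 between -8.46 and -6.39. For these, a signal that was not well above background does not show that the gene was silent. Hoxd3os1, a transcript of the opposite strand at Hoxd3, was well above background on 1 of 3 treated and 2 of 3 untreated ΔC arrays and on 2 of 3 treated and 1 of 3 untreated WT arrays, and Evx2 on 0 of 12.

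The arrays lay on 5 slides scanned on 3 days, and some slides and days held both groups of a comparison. Within slide 2, with 1 array per group, the ΔC minus WT differences in untreated cells were -11.55 for Hoxd13, -8.92 for Hoxd11, -7.34 for Hoxd10, -1.20 for Hoxd9 and -2.60 for Hoxd8. Within slide 1 and with poly(I:C), they were -11.64, -5.89, -6.48, -1.12 and -2.52 in the same order. Within scan day 1, the differences of Hoxd13, Hoxd11, Hoxd10, Hoxd9 and Hoxd8 were -12.14, -8.82, -7.65, -0.95 and -2.46 untreated and -11.65, -6.02, -6.42, -1.27 and -2.53 with poly(I:C). Since no ΔC array reached the level of a WT array of the same treatment for these members, the sign of such a difference is fixed and only its size is informative. No slide or day used here held a ΔC array 3. Under a fixed block for slide, the calls on Hoxd13, Hoxd11 and Hoxd10 stood in both comparisons (limma adjusted p = 0.0012 to 0.00716), and with scan day likewise.

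Poly(I:C) was the second question put to these cells. Of the members, 0 of the 2 with signal in ΔC cells, Hoxd8 and Hoxd9, passed limma's test of the response to poly(I:C) in ΔC cells, where 1.84% of all genes tested were called (1.82% higher and 0.0194% lower), and 0 of 5 passed in WT cells, where 6.77% were (5.24% higher and 1.53% lower). The difference between the responses was called for 0 of the 2, against 0.0194% of all genes tested (0.00647% higher and 0.0129% lower). At an unadjusted p under 0.05 in limma's fit over all genes, the counts were 0 as well, beside 10.9% of all genes in ΔC cells, 26.2% in WT cells and 5.41% for the difference. In ΔC cells the log2 change of Hoxd8 with poly(I:C) was -0.49 (95% interval -2.47 to 1.49, limma adjusted p = 0.884) and that of Hoxd9 -0.72 (-2.64 to 1.21, adjusted p = 0.812). Treated and untreated ΔC arrays overlapped for both. Without the 4 arrays numbered 3, the ΔC change was -0.46 for Hoxd8 (limma adjusted p = 0.0606) and -0.53 for Hoxd9 (adjusted p = 0.35). Hoxd10, Hoxd11 and Hoxd13 lay at or near background in ΔC cells, and no change is given.

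In WT cells the log2 change with poly(I:C) was 0.44 for Hoxd10 (95% interval -0.41 to 1.28, limma adjusted p = 0.481), 0.39 for Hoxd11 (-0.93 to 1.71, adjusted p = 0.695) and 0.30 for Hoxd13 (-1.01 to 1.61, adjusted p = 0.764). These 3 genes were higher on the treated than on the untreated WT array of each number, yet the treated and untreated groups overlapped. The same held for Hoxd9, while Hoxd8 was lower on each treated array. Hoxd9 gave 0.35 (-1.57 to 2.27, adjusted p = 0.816) and Hoxd8 -0.22 (-2.20 to 1.77, adjusted p = 0.896), neither beyond the spread pooled over the groups. The intervals of Hoxd8, Hoxd9 and Hoxd13 reach past 1 log2 unit in both directions, so that a change of 2-fold could have gone unseen. Those of Hoxd10 and Hoxd11 reach past 1 log2 unit upward, so that a rise of 2-fold could have. The spread pooled over the groups includes ΔC arrays 3. Within slide 2 and scan day 1, the WT change was -0.32 both times for Hoxd8, and 0.39 and 0.24 for Hoxd9. Within slide 1 and scan day 1, the ΔC change was -0.51 and -0.38 for Hoxd8, and -0.33 and -0.08 for Hoxd9. The difference between the ΔC and WT responses was -0.28 for Hoxd8 (-3.08 to 2.53, adjusted p = 0.999) and -1.07 for Hoxd9 (-3.79 to 1.65, adjusted p = 0.987). Without the 4 arrays numbered 3 this difference was -0.18 for Hoxd8 (limma adjusted p = 0.613) and -0.96 for Hoxd9 (adjusted p = 0.369). The WT change of Hoxd8 was then -0.27 (adjusted p = 0.131).

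**Figure D3:**
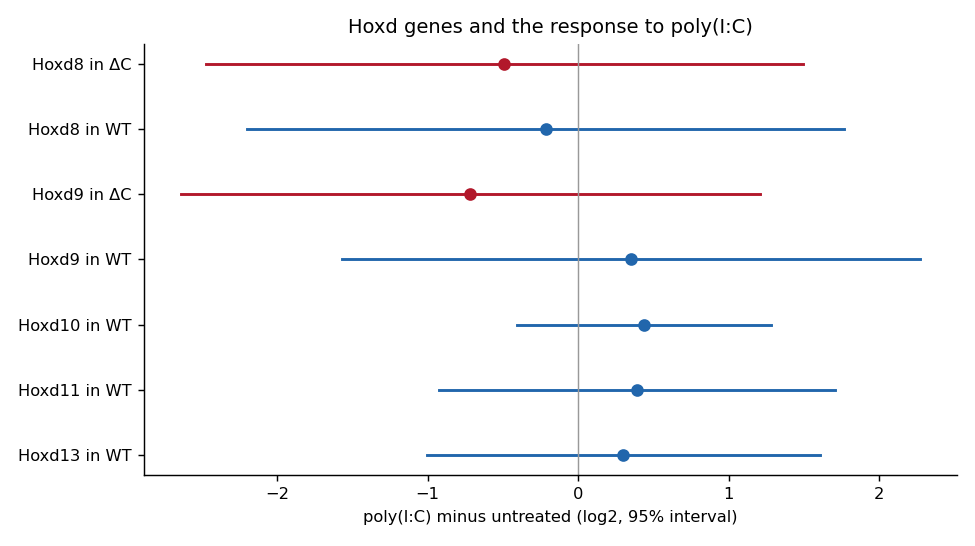
Log2 change with poly(I:C) against untreated cells (horizontal axis) of Hoxd8 and Hoxd9 in ΔC and WT cells and of Hoxd10, Hoxd11 and Hoxd13 in WT cells, where points are limma estimates and lines 95% intervals. Every interval includes 0, and those of Hoxd8 and Hoxd9 are the widest, from -2.64 to 2.27.

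Set beside their paralogues in untreated cells, Hoxd13 and Hoxd11 were lower in ΔC cells as were Hoxa13 and Hoxa11, while Hoxb13, Hoxc13 and Hoxc11 were higher. Hoxc9, Hoxc10, Hoxc11 and Hoxc13 were well above background on 0 of 6 WT arrays. They and the Hoxb genes named here entered the test through the ΔC groups alone, and the Hoxd members and Hoxa13 through the WT groups alone. Nothing is therefore read from the directions of these genes, whether opposite or shared. Hoxd13 fell with Hoxa13 (at least 14.2-fold lower in ΔC cells, limma adjusted p = 0.00109), while Hoxc13 was at least 61.0-fold higher (adjusted p = 7.67e-07) and Hoxb13, well above background on 2 of 3 untreated WT arrays, had a fitted difference of 9.37 (adjusted p = 2.43e-06). Hoxd11 fell with Hoxa11 (-3.32 ± 0.56, adjusted p = 0.00275), while Hoxc11 was at least 71.3-fold higher (adjusted p = 2.12e-06). Hoxd10 fell where Hoxa10 did not pass (-0.46, adjusted p = 0.404) and Hoxc10 was at least 25.9-fold higher (adjusted p = 1.76e-05). For Hoxd9, which did not pass, Hoxa9 did not either (-0.34, adjusted p = 0.442), whereas Hoxc9 was at least 315-fold higher in ΔC cells (adjusted p = 1.68e-10). Hoxd8 fell where Hoxc8 did not pass (2.44, adjusted p = 0.0928). Hoxb9 and Hoxb8, each well above background on 1 of 3 untreated WT arrays, passed with fitted differences of 9.37 and 7.32 (adjusted p = 8.45e-06 and 4.70e-04), sizes that draw on background readings in WT cells.

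Counted by cluster, no Hoxd gene was well above background on all 6 ΔC arrays, against 5 on all 6 WT arrays. In the Hoxb cluster 9 genes were on all 6 ΔC arrays and 3 on all 6 WT arrays, in Hoxc 9 and 1, and in Hoxa 10 and 10. Of 11 Hoxa genes tested, 4 were higher and 2 lower in ΔC cells, beside 10.9% higher and 10.2% lower over all genes tested, and their median log2 difference was 0.02 beside -0.06. Among those called, Hoxa2, which was higher, entered the test through the ΔC groups alone. Hoxa13, which was lower, entered through the WT groups alone. Nothing is read from the direction of either. Many Hoxb and Hoxc genes were tested only through the ΔC groups, in which they are bright, so no count or median is read for them.

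**Figure D4:**
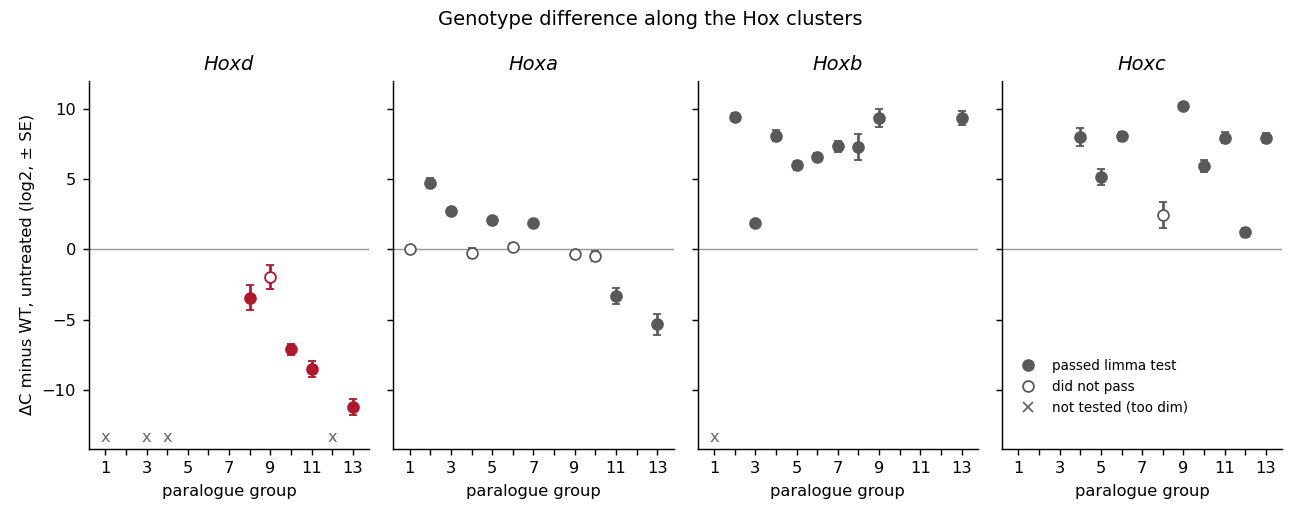
Log2 difference between untreated ΔC and untreated WT cells ± SE (vertical axis) by paralogue group (horizontal axis) in the clusters Hoxd, Hoxa, Hoxb and Hoxc. Filled points passed limma's test, hollow ones did not, and a cross marks genes too dim to be tested. The Hoxd points run from -1.96 at Hoxd9 to -11.22 at Hoxd13, and the points of Hoxb and Hoxc all lie above 0, several of them against WT levels at background.

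The genes around the cluster did not lose their signal with it. Of 6 neighbours tested, which lie on either side of the cluster, 0 were higher and 1 was lower in untreated ΔC cells, beside 10.9% higher and 10.2% lower over all genes tested, and their median log2 difference was -0.27, beside -0.06. Without the arrays numbered 3, 0 were higher and 3 lower. The nearest on the Hoxd1 side, Mtx2, which encodes a mitochondrial outer membrane protein, gave -0.06 ± 0.16 (limma adjusted p = 0.818), and Hnrnpa3, an RNA-binding protein gene, -0.03 (adjusted p = 0.913). Lnpk, beyond Evx2, whose product shapes the endoplasmic reticulum, gave -0.31 ± 0.18 untreated (adjusted p = 0.25) and -0.71 with poly(I:C) (adjusted p = 0.0206). Atf2 and Nfe2l2, both transcription factor genes, gave -0.42 (adjusted p = 0.133) and -0.22 (adjusted p = 0.595). Atp5g3, which encodes a subunit of ATP synthase, was the lower one (-0.61 ± 0.11, adjusted p = 0.00367), a call lost with median scaling, quantile normalization, slide as a fixed block and the authors' table.

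Genes that act with or on Hoxd genes were counted from lists in untreated cells, where 10.9% of all genes tested were called higher and 10.2% lower, with a median of -0.06. TALE cofactors bind DNA together with Hox proteins. Of 11 such genes, 3 were higher in ΔC than in WT cells and 0 lower, with a median of 0.24. Among the higher ones were Meis1 (1.96 ± 0.30, limma adjusted p = 0.00157) and Meis2 (1.34, adjusted p = 0.0384). With the replicate block 4 were higher and 1 lower, and without arrays 3 it was 5 and 2. With a fixed block for slide or scan day it was 1 and 0. Of 21 Polycomb genes, whose products keep Hox clusters silent, 4 were higher, 1 was lower and 16 did not pass, with a median of 0.07, a share near that of all genes. Cbx2 (0.67, adjusted p = 0.0214) and Cbx8 (0.64, adjusted p = 0.0326) were higher and Rbbp7 (-0.62, adjusted p = 0.0107) lower, and 0 Polycomb genes were called under median scaling or with slide or scan day as a fixed block, and 9 without arrays 3. Of 8 trithorax and H3K27 demethylase genes, whose products act against that silencing, Men1 was higher (0.53, adjusted p = 0.0193) and Kdm6a lower (-0.63, adjusted p = 0.028), and of 8 CTCF and cohesin genes, which fold the region, 0 were called. Under 28 other settings 0 to 3 of these CTCF and cohesin genes were called. At an unadjusted p under 0.05, 4 of these 8 would count, beside 35% of all genes, and the largest differences were 0.82 for Smc3 (adjusted p = 0.0747) and -0.62 for Stag2 (adjusted p = 0.065). Under 28 other settings Meis2 passed in 14, Cbx8 in 18, Kdm6a in 19, Cbx2 in 21, and Men1 and Rbbp7 in 22 each.

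Retinoic acid sets Hox genes on in the embryo, and 1 gene of its pathway was higher and 4 were lower in ΔC cells of 11 tested, with a median of -0.44, beside 10.9% higher and 10.2% lower over all genes. The number called was 2 with slide or scan day as a fixed block. Crabp1 and Crabp2, which bind retinoic acid in the cell, went apart (6.09 ± 0.94, limma adjusted p = 0.00169, and -3.13 ± 0.42, adjusted p = 7.59e-04), and the receptor gene Rxra was lower (-0.91, adjusted p = 0.0407). Of 24 genes of limb formation tested, 3 were higher and 8 lower, with a median of -0.57. With the replicate block 7 were higher and 11 lower, without arrays 3 it was 5 and 13, and with slide as a fixed block 1 and 5. Some of these genes, among them Tbx4 and Tbx2, had no untreated array well above background in the dimmer genotype. Such genes can enter the test through the other genotype alone, so nothing is read from these counts. Pitx1, which gives the hindlimb its identity, read -5.87, -8.43 and -4.40 on untreated ΔC arrays, against 5.24, 5.39 and 4.73 on WT arrays. It was well above background on ΔC arrays 1 and 3, and its fitted difference of -11.35 ± 0.84 (adjusted p = 1.67e-05) draws in part on readings at background. Tbx4, a hindlimb factor, was at least 8.87-fold lower (adjusted p = 0.00539), whereas Bmp7, a growth factor gene, was higher (2.33, adjusted p = 0.0402), as was Tbx2 (at least 2.02-fold, adjusted p = 0.0419). Under the 28 other settings Rxra passed in 14, Bmp7 in 12 and Tbx2 in 10.

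The genes with the most similar levels over the 12 arrays were named for each member tested. Likeness was measured as the root mean square difference between log2 profiles, each centred on its own mean, among named genes outside the cluster, predicted genes left out. For Hoxd13, Hoxd11 and Hoxd10 the ΔC readings were not well above background on 5, 5 and 6 of 6 arrays, so the order of the nearest genes rests in part on background. For Hoxd13 it was 1.12 to Pitx1, 1.38 to Ppp1r15a and 1.99 to Ppbp, a chemokine gene. For Hoxd10 it was 0.49 to Xdh, which encodes xanthine dehydrogenase, 0.56 to Galnt13 and 0.63 to Fabp4, and for Hoxd11 0.99 to Xdh, 1.13 to Cxcl5 and 1.16 to Galnt13. Hoxd8 was closest to Htr7, a serotonin receptor gene (0.51), Hoxa11 (0.63) and Rnf43 (0.63), and Hoxd9 to Slco2a1 (0.66), Hao1 (0.76) and Thsd1 (0.78). Htr7 read -4.36, -4.78 and -6.49 in untreated ΔC cells and -0.95, -0.97 and -1.49 in untreated WT cells. It was lowest on ΔC array 3, but it had been picked for its likeness to Hoxd8 over these same arrays. Nothing is therefore read from this.

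Markers of fibroblasts and of other cells were read beside the Hoxd genes. Of 15 fibroblast markers, 12 were well above background on all 12 arrays. The log2 of the summed linear levels of all 15 was 8.73 to 9.59 in untreated ΔC and 10.12 to 10.32 in untreated WT cells. Of 14 tested, 0 were higher and 4 lower in ΔC cells, beside 10.9% and 10.2% of all genes (1 higher and 6 lower with the replicate block, 0 and 1 with slide as a fixed block or the authors' table), such as Col3a1 (-3.64 ± 0.65, limma adjusted p = 0.0037) and S100a4 (-2.06 ± 0.28, adjusted p = 8.05e-04). Summed in the same way, macrophage and leukocyte markers gave 3.32 to 3.70 in untreated ΔC and 4.30 to 4.56 in untreated WT cells. Of 5 tested, 3 were lower, among them Csf1r (-1.19) and Cd14 (-1.17). Epithelial markers gave 0.85 to 1.92 in untreated ΔC and -0.75 to 2.30 in untreated WT cells. Epcam was at least 8.01-fold and Cdh1 at least 1.64-fold higher in ΔC cells, and Krt8 was lower (-1.91). Under 28 other settings Epcam passed in 23, Cdh1 in 26 and Krt8 in 25. Cdh1 missed with another background correction and with levels raised to the floor of each array. Of the cartilage markers Comp was higher (2.67, adjusted p = 0.00175) and Sox9 lower (-0.79, adjusted p = 0.0353, passing in 17 of 28 other settings), and 0 of 2 endothelial, 0 of 2 muscle, 0 of 5 neural and 0 of 2 pluripotency markers tested were called (1, 1, 0 and 0 at an unadjusted p under 0.05, limma, beside 35% of all genes). Under the 28 other settings 0 to 1 endothelial, 0 to 1 muscle, 0 to 1 neural and 0 pluripotency markers were called. The part of these marker differences in the Hoxd values was not tested.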

How the data were processed

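RNA of 12 cultures was measured on single-colour arrays. Per the file headers, Feature Extraction 10.7.3.1 read the scans, and the deposited intensity of each spot had its background subtracted and a spatial trend removed, was kept above 0, and was not scaled between arrays. A second deposited file holds the authors' log2 values (limma, per the submitters' processing notes, with no version). Its 12 columns share a median of 5.28 on the log2 scale.

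From the scanner intensities, log2 was taken and the 75th percentile of each array subtracted. Probes were named through RefSeq accessions, and the probe with the highest mean stood for its gene. A gene was tested with all 3 arrays of a group above background, and 107 probes with outlier flags were left out. The 15445 genes were fitted with limma 3.58.1 in R 4.3.3, as 1 mean per group over 12 arrays with 8 residual degrees of freedom. Tests were two-sided and adjusted by Benjamini-Hochberg. The fit was tested on simulated data. A bound ("at least") sets each dim array at its lowest signal well above background. Errors are standard errors of the model. The number of arrays limits the precision.

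The members, lists and named genes were chosen with earlier results of these data known. All members were named, and from each list outside the Hox clusters the 2 largest called rises and falls. From the other Hox clusters the paralogues of the members tested were named, and Hoxa2 for how it entered the test. Neighbours, sex-linked genes, the targeted gene, checks of the treatment and the 3 genes most like each member were named as well. Arrays of the same number deviated together (correlations of 0.115 to 0.651). Arrays of different numbers gave -0.579 to 0.266, and some pairs of arrays 1 and 2 also deviated together. A block for the number, which treats arrays of the same number as pairs, was run as an alternative. The main fit has no such term. The normexp alternative used the median spot signal, since the files hold no mean signal. Alternatives were other background corrections, scalings, filters, blocks and left-out arrays. In all, 5 comparisons were made.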

Additional observations from a re-analysis of the deposited data

How the results depend on the processing

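In untreated cells the differences of Hoxd13, Hoxd11 and Hoxd10 between ΔC and WT passed limma's test under each of 28 alternatives, with highest adjusted p of 0.02, 0.0111 and 0.0149. With poly(I:C) the same 3 genes passed under 27 of 28 and missed with the authors' table (adjusted p = 0.0562, 0.0589 and 0.0522). That table's column for ΔC poly(I:C) 1 correlated at -0.0614 with its own scanner file, against 0.936 to 0.984 for the other columns. With poly(I:C), 5 Hoxd genes were called, but 0 with the authors' table, 3 with slide as a fixed block, 3 with scan day as a fixed block, and 5 with the mismatched column left out. The 2 lost to the blocks were Hoxd8 (-4.13 with slide and -3.62 with scan day, against -3.73) and Hoxd9 (-3.07 and -2.66, against -3.03). In untreated cells 4 were called, and 3 with either fixed block or the authors' table. Leaving out 1 array in turn gave 3 to 4 calls untreated, 4 to 5 with poly(I:C), 0 to 1 in the ΔC response, 0 in the WT response and 0 for the difference between the responses. Hoxd11 was the 1 call of the ΔC response without ΔC poly(I:C) 3, and also without all 4 arrays numbered 3, which gave 1, and it rests on ΔC readings mostly at background. Both fixed blocks, the set without arrays 3, the levels raised to the floor and the authors' table without its mismatched column were chosen after seeing the data. No tested Hoxd gene changed sign between the genotypes under any alternative run. Nothing is read from this, since the ΔC and WT arrays of a treatment did not overlap for these genes.

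The main fit ignores any pairing of arrays of the same number. The replicate number as a block, which treats them as pairs, left 4 Hoxd genes called untreated, 5 with poly(I:C) and 0 in the other comparisons. It changed no Hoxd call. The block moved the calls of the limb genes to 18, against 11, of the fibroblast markers to 7, against 4, and of the TALE cofactors to 5, against 3.

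Sizes depended on the treatment of dim signal, since normexp gave -7.85 for Hoxd13, -4.12 for Hoxd11 and -3.38 for Hoxd10 in untreated cells, against -11.22, -8.50 and -7.10. Counts over all genes depended more on the setting. In untreated cells 1686 genes were higher and 1581 lower in ΔC cells (51.6% higher), 1264 and 696 under median scaling (64.5%), 549 and 374 with slide as a fixed block, 752 and 277 with the authors' table and 2752 and 2873 without arrays 3. With poly(I:C) the higher share was 56.8%, and 45.9% with median scaling, which moved the median of all genes to -0.14, against 0.01. Array signal well above background limits what can be said of Hoxd1, Hoxd3, Hoxd4 and Hoxd12, and the spread of the arrays numbered 3 limits what could be seen of Hoxd8 and Hoxd9.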
